A study of Mus musculus with 11 samples.

Results

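Chaperone genes of the cytosol and the mitochondria were followed in mouse fibroblasts exposed to a nucleolin-binding DNA aptamer. Members were the protein-coding genes whose symbols name HSP70, HSP110, HSP60, HSP10, small heat shock or cytosolic HSP90 proteins, J-proteins, chaperonin subunits or BAG factors. Tcp1, Hsf1, Hsf2, Stip1, Fkbp4, Fkbp5 and Ahsa1 were added, and Hspa5, Dnajb9, Dnajb11 and Dnajc3 were left out. The rule named 89 genes, of which 77 were among the 15022 genes of the count table and 74 passed the filter on low counts and were tested. The 12 others (Hspa12a, Hspa14, Cct6b, Cct8l1, Dnajb3, Dnajb7, Dnajb8, Dnajb13, Dnajc5b, Dnajc5g, Dnajc6 and Hspb3) were not analysed here. Cct6a was kept because RefSeq lists it as coding, although the gene annotation used for the other symbols does not. The rule also leaves in J-proteins known from the endoplasmic reticulum, among them Dnajb12, Dnajb14, Dnajc1 and Dnajc10, so the set is not purely cytosolic and mitochondrial.

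All libraries came from wild-type NIH-3T3, an established line of mouse embryonic fibroblasts, profiled by polyA RNA sequencing. Cells received AS1411 at 10 µM or a control DNA oligonucleotide at 10 µM, for 24 h or 48 h. There were 3 libraries of AS1411 cells at 24 h, 2 of AS1411 cells at 48 h, 3 of control cells at 24 h and 3 of control cells at 48 h. No untreated cells were sampled, and the labels do not tell whether replicates came from separate cultures. The p-values therefore reflect only the spread among these libraries, which may be technical.

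HSP70 proteins bind exposed hydrophobic stretches of client proteins in cycles of ATP hydrolysis, which J-proteins start and nucleotide exchange factors (HSP110 and BAG proteins) end. Clients such as kinases and steroid receptors pass on to HSP90 with the help of co-chaperones, actin and tubulin fold inside the ring-shaped chaperonin TRiC/CCT, and matrix proteins of mitochondria fold inside HSP60 with its lid HSP10. Small heat shock proteins hold unfolding proteins without using ATP, and the transcription factor HSF1 switches on many chaperone genes when unfolded proteins build up.

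The oligonucleotides are shown because they are what treated and control cells received. Each is 26 nt long. Capitals mark guanine, of which AS1411 has 17 and the control oligo 0.
AS1411: GGtGGtGGtGGttGtGGtGGtGGtGG
Control oligo: cctcctcctccttctcctcctcctcc

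HSF1 binds inverted repeats of the unit GAA, and the promoter windows of 2 loci are shown because they hold a run of 3 or more alternating units and belong to genes that fell with AS1411. Windows run from 250 bases before to 50 bases after a RefSeq transcript start (GRCm38.p6). The adjacent-unit motif searched was GAANNTTC or TTCNNGAA on both strands, and the longer run was 3 alternating units at the same spacing, so a run contains both pair forms. Hspe1 lies at chr1:55087898-55088197 on the plus strand and Hspd1 starts head to head with it, a window of it being chr1:55087883-55088182 on the minus strand, so both genes share the stretch in capitals, which begins at position -89 from the Hspe1 start and at -144 from the Hspd1 start. In that stretch 2 runs of 3 units overlap. A window of Hsph1 is chr5:149636266-149636565 on the minus strand, and its run begins at position 15 after the start.
Hspe1: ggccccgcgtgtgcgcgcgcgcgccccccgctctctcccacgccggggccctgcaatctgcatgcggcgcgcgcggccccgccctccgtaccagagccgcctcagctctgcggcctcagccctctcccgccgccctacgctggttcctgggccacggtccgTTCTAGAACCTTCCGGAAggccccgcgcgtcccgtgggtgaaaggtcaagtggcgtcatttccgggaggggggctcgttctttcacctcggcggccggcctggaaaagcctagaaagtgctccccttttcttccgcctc
Hsph1: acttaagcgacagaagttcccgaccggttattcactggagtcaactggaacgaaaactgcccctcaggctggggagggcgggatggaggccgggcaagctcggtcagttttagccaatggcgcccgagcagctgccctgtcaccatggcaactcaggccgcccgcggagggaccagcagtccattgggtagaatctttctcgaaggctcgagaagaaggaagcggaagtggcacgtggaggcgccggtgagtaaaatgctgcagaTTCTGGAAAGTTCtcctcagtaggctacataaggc
Of 72 members with a RefSeq window, 22 (30.6%) held the adjacent-unit motif in at least 1 window, beside 17.0% of the 27025 genes of the table. The longer run was found in 4 members (5.56%; Hspd1, Hspe1, Hsph1 and Dnajb6) and in 179 genes (0.66%) of the table. Among members with a window, 9 of 27 called lower at 48 h held the adjacent-unit motif. So did 4 of 15 called higher and 5 of 16 tested and not called, and these shares lay close together. The longer run was held by 3 of the 27 (11.11%), 0 of the 15 and 1 of the 16 (6.25%). Hspd1 and Hspe1, 2 of those 3 lower members, share 1 stretch, and the split was not tested. Those shares cover only part of the members, since 35 were called lower, 18 higher and 21 not called at 48 h. Hsp90aa1, Hsp90ab1, Hspa8 and Cct4 were among the members not matched.

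Libraries held 13541951 to 18784497 counts. Within the control group at 48 h, replicate 2 stood apart: its counts differed from replicates 1 and 3 with chi-square values of 8.39 and 11.2 for each gene on average, and replicates 1 and 3 from each other with 4.43. Without it, 17 members were called higher and 33 lower at 48 h, beside 18 and 35 with it. Fibroblast markers were present (7 of 10 in the table, including Vim and Col1a1), at a summed 6836 to 7427 CPM (counts scaled to library size) in control cells and 6222 to 6572 CPM in AS1411 cells at 24 h, and at 7174 to 8486 and 4634 to 5201 CPM at 48 h. Epithelial and endothelial markers stayed at or below 1.91 CPM in sum, and the single leukocyte marker in the table, Cd68, reached 11.9 to 13.1 CPM in AS1411 cells at 48 h against 3.73 to 4.07 CPM in control cells. Mitochondrially encoded transcripts took 1.288% to 1.712% of counts in AS1411 cells at 24 h and 0.713% to 0.897% in control cells, and 1.071% to 1.189% and 0.863% to 1.224% at 48 h. The part of these shifts in the chaperone results was not tested. In bulk RNA, fewer cells of a kind and less RNA per cell cannot be told apart.

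Chaperone transcripts made up a smaller share of the library after AS1411. The 77 genes took 2.32% to 2.355% of counts in control cells and 1.977% to 2.068% in AS1411 cells at 24 h. At 48 h they took 2.27% to 2.332% and 1.859% to 1.899%. AS1411 and control libraries did not overlap at either time.

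Genes were called with edgeR's quasi-likelihood test at an adjusted p under 0.05 over 13040 genes. Where groups of a gene are said to be apart or not to overlap, this only describes the libraries. The share of all genes with groups apart was not counted, so such separation is not read as a trait of chaperones. At 24 h AS1411 lowered 26 of the 74 members (35.1%) and raised 9 (12.2%), where 16.7% of all genes tested were lower and 13.1% higher. The median log2 fold change of the members was -0.09, beside 0.01 for all genes tested. At 48 h 35 members (47.3%) were lower and 18 (24.3%) higher, beside 28.5% and 29.4% of all genes, with medians of -0.13 and 0.01. The lower share lay above the background at both times, and the higher share lay near or below it. With scaling by total counts alone, which moved the median of all genes to 0.09 at 24 h and 0.16 at 48 h, the members split into 13 higher and 21 lower at 24 h (17.6% and 28.4%), where 22.1% of all genes were higher and 9.21% lower. At 48 h the split was 27 higher and 23 lower (36.5% and 31.1%), beside 41.6% and 18.2% of all genes. Changes were mostly small. No member fell by 2-fold or more at either time, where 31 of the 13040 genes were called and did so at 24 h and 260 at 48 h. Of the 74 members 4 rose by 2-fold or more at 48 h (Dnajc22, Dnajc12, Dnajc28 and Hspb1), beside 907 of the 13040 genes. These counts are not read as a trait of the set. Across the times 24 members were lower at both, 9 higher at both, and 20 were called at neither. These patterns were not counted over all genes tested, so the 3 counts have no background and mark no trait of the set.

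**Figure D1:**
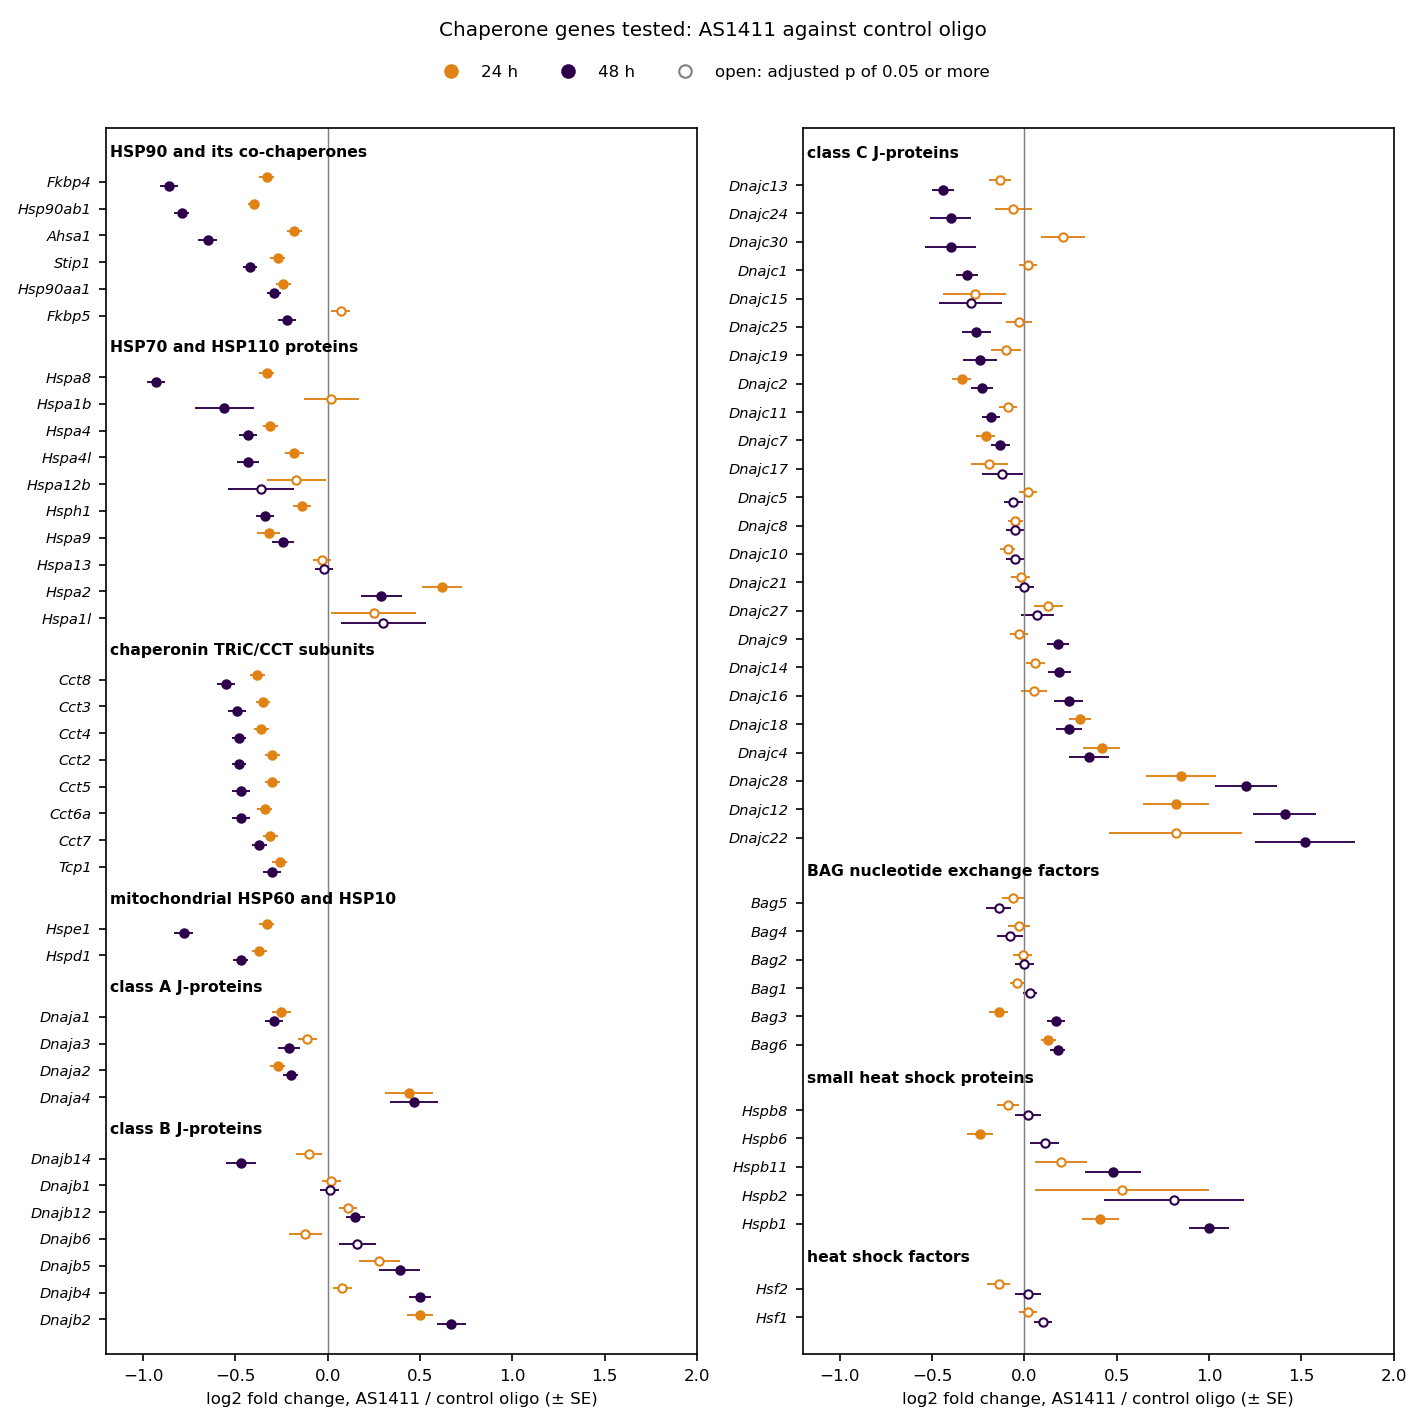
Log2 fold change of AS1411 against control oligo (x axis, bars are the SE) for the 74 chaperone genes tested, at 24 h (orange) and 48 h (purple), grouped by role; open circles did not pass an adjusted p of 0.05. HSP90, CCT and HSP60/HSP10 genes lie left of 0 except Fkbp5 at 24 h (0.07), and the genes past 1 on the right are Dnajc22, Dnajc12 and Dnajc28, with Hspb1 at 1.0.

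HSP90 and most of its co-chaperones were lower with AS1411 at both times. Of the 6 genes, 5 were lower at 24 h (83.3%, median log2 fold change -0.25), beside 16.7% of all genes. At 48 h 6 were lower (100%, median -0.53), beside 28.5%. Hsp90ab1 (ENSMUSG00000023944, chr17:45567775-45573271, minus strand, GRCm38), the constitutive cytosolic HSP90, had the highest level per length of all members. In control cells at 24 h it stood at 1840 ± 7.08 RPKM (CPM scaled by exon length, SD, n = 3). Its levels were 5502, 5512 and 5543 CPM in control and 4032, 4169 and 4310 CPM in AS1411 cells at 24 h. At 48 h they were 5291, 5474 and 5181 CPM in control and 3067 and 3065 CPM in AS1411 cells. Every AS1411 library lay below every control library, and those at 48 h lay lowest. The log2 fold change was -0.40 ± 0.03 (SE, adjusted p = 2.3e-07) at 24 h and -0.79 ± 0.04 (adjusted p = 1.7e-11) at 48 h, and the difference between the times, -0.39 ± 0.05, passed (adjusted p = 2.3e-05).

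Hsp90aa1, the stress-inducible cytosolic HSP90, moved less. It read 483, 491 and 458 CPM in control and 391, 409 and 415 CPM in AS1411 cells at 24 h, then 462, 476 and 446 against 375 and 378 CPM at 48 h. The groups did not overlap at either time, with log2 fold changes of -0.24 ± 0.04 and -0.29 ± 0.04 and no called difference between the times (-0.06, adjusted p = 0.523). The ratio of Hsp90ab1 to Hsp90aa1 counts within a library, which no scaling alters, was 11.2 to 12.1 in control and 10.2 to 10.4 in AS1411 cells at 24 h, and 11.5 to 11.6 against 8.1 to 8.18 at 48 h. The ratio thus lay lower in all 5 AS1411 libraries, although an exact two-sided permutation test can reach no less than p = 0.1 at 24 h and p = 0.2 at 48 h, the values it gave. This ratio was chosen after the values were seen.

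The co-chaperones that load and time HSP90 fell as well. Fkbp4, the immunophilin FKBP52 that assists steroid receptors, read 499, 502 and 500 CPM in control and 384, 411 and 403 CPM in AS1411 cells at 24 h. The values at 48 h were 500, 471 and 479 against 276 and 257 CPM, the groups being apart at both times. Its log2 fold change went from -0.33 ± 0.04 (adjusted p = 1.1e-05) to -0.86 ± 0.05 (adjusted p = 3.4e-11). Ahsa1, which stimulates the HSP90 ATPase, went from 268, 267 and 259 CPM to 226, 237 and 237 CPM at 24 h and from 257, 241 and 248 to 163 and 155 CPM at 48 h. That is a log2 change of -0.18 ± 0.04 and then -0.65 ± 0.05, and the call at 24 h was lost when libraries were scaled by total counts alone (-0.10, adjusted p = 0.0657). Stip1, the adaptor HOP that links HSP70 to HSP90, fell by 0.27 ± 0.04 and 0.42 ± 0.04. Fkbp5, the relative of Fkbp4 that dampens steroid receptors, read 75.5, 77.6 and 73.2 CPM in control and 78.5, 76.8 and 81.4 CPM in AS1411 cells at 24 h, where the groups overlapped. At 48 h it read 78.4, 76.4 and 80.3 against 65.4 and 68.9 CPM, a change of -0.22 ± 0.05 that shrank to -0.08 (adjusted p = 0.234) when libraries were scaled by total counts alone.

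**Figure D2:**
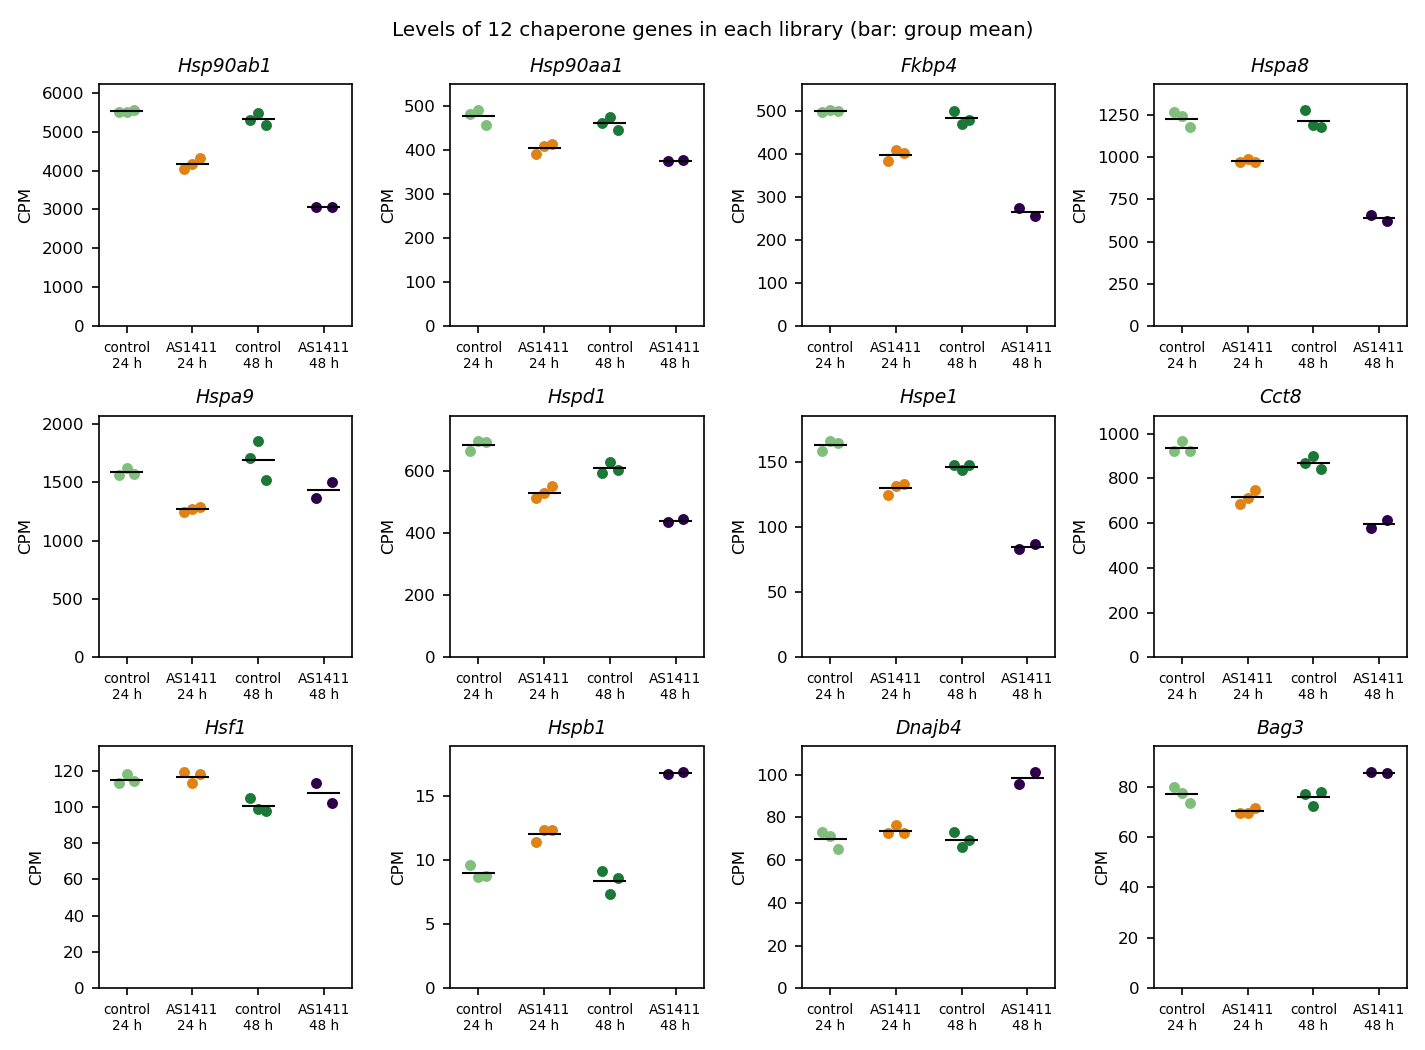
CPM (y axis from 0) of 12 chaperone genes in each library (points) with the group mean (bar), for control and AS1411 cells at 24 h and 48 h. Hsp90ab1, Fkbp4, Hspa8, Hspd1, Hspe1 and Cct8 are lowest in AS1411 cells at 48 h, Hsf1 overlaps between treatments at each time, and Hspb1 and Dnajb4 are highest in AS1411 cells at 48 h.

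Among HSP70 and HSP110 genes the constitutive and mitochondrial members fell. At 24 h 5 of the 10 tested were lower (50%) and 1 higher (10%), beside 16.7% and 13.1% of all genes. At 48 h 6 were lower (60%) and 1 higher (10%), beside 28.5% and 29.4%. The medians were -0.15 and -0.35. Hspa8 (ENSMUSG00000015656, chr9:40800984-40810087, plus strand), the constitutive cytosolic HSC70, read 1264, 1244 and 1176 CPM in control and 973, 988 and 970 CPM in AS1411 cells at 24 h. The later libraries read 1276, 1190 and 1176 against 655 and 623 CPM. AS1411 libraries lay below all control libraries, with log2 fold changes of -0.33 ± 0.04 (adjusted p = 1.1e-05) and -0.93 ± 0.05 (adjusted p = 1.9e-11), the latter being the lowest of any member at 48 h. Hspa9, the mitochondrial HSP70 mortalin, read 1562, 1617 and 1571 CPM against 1241, 1271 and 1289 CPM at 24 h. At 48 h it read 1711, 1849 and 1518 against 1364 and 1500 CPM, so the AS1411 libraries still lay below the control ones but by less than the gap at 24 h. Its log2 fold change was -0.32 ± 0.06 and then -0.24 ± 0.06, and the call at 48 h was lost without AS1411 replicate 1 (-0.18, adjusted p = 0.076) or with scaling by total counts (-0.09). The ratio of Hspa8 to Hspa9 counts, also chosen after the values were seen, was 0.749 to 0.809 in control and 0.752 to 0.784 in AS1411 cells at 24 h, and 0.644 to 0.774 against 0.415 to 0.481 at 48 h. It overlapped at 24 h and not at 48 h, where the exact permutation p was 0.2, the smallest possible.

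The HSP110 proteins, which release nucleotide from HSP70, moved the same way. Hspa4 went from 892, 934 and 912 CPM to 711, 744 and 753 CPM at 24 h (-0.31 ± 0.04) and from 837, 929 and 836 to 629 and 657 CPM at 48 h (-0.43 ± 0.05). Hspa4l fell by 0.18 ± 0.05 and 0.43 ± 0.06, and its call at 24 h was lost without control replicate 2 at 24 h (-0.17, adjusted p = 0.0525) or with scaling by total counts (-0.10, adjusted p = 0.0734). Hsph1, whose promoter is printed above, fell by 0.34 ± 0.05 at 48 h, from 520, 468 and 480 to 411 and 362 CPM. Its difference of -0.14 ± 0.05 at 24 h (adjusted p = 0.0333) no longer passed when any single library of 24 h was left out, with values from -0.14 to -0.12, or with scaling by total counts (-0.06). These genes did not overlap between treatments at 48 h.

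Inducible HSP70 was not called between treatments at 24 h. Hspa1b read 12.9, 12.7 and 11.5 CPM in control and 12.2, 11.6 and 13.5 CPM in AS1411 cells at 24 h, an overlap with a log2 difference of 0.02 ± 0.15. At 48 h control libraries read 22.6, 13.3 and 18.5 CPM and AS1411 libraries 12.7 and 11.9 CPM. The control level rose with time by 0.55 ± 0.15 (adjusted p = 0.0137) while the AS1411 level differed by -0.03 ± 0.17 between times, and the treatment difference at 48 h was -0.56 ± 0.16 (adjusted p = 0.00893). The rise in control cells was lost without control replicate 3 at 24 h (0.51, adjusted p = 0.053), and the difference at 48 h without AS1411 replicate 2 (-0.52, adjusted p = 0.064) or with scaling by total counts (-0.42, adjusted p = 0.051). Hspa1a is a near-identical copy with 0 to 6 counts per library, so reads of the pair cannot be assigned with certainty. Hspa2, an HSP70 best known from the testis, rose at 24 h from 7.58, 9.4 and 7.26 CPM to 12.2, 12.7 and 12.4 CPM (0.62 ± 0.11, adjusted p = 3.3e-04). At 48 h it read 11.7, 10.6 and 11.3 against 13.5 and 13.8 CPM, a difference of 0.29 ± 0.11 that was lost without AS1411 replicate 1 (0.30) or 2 (0.26), without control replicate 2 (0.25) or 3 (0.29), and under DESeq2 (0.28, adjusted p = 0.108). Hspa13 and the low-level Hspa1l and Hspa12b were not called at either time.

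All 8 measured subunits of the chaperonin TRiC/CCT fell at both times, within a narrow band. Each was called lower at both, beside 16.7% of all genes at 24 h and 28.5% at 48 h. Log2 fold changes ran from -0.38 for Cct8 to -0.26 for Tcp1 at 24 h (median -0.32) and from -0.55 for Cct8 to -0.30 for Tcp1 at 48 h (median -0.47). Cct8 (ENSMUSG00000025613, chr16:87483326-87495873, minus strand) read 920, 965 and 920 CPM in control and 687, 714 and 750 CPM in AS1411 cells at 24 h, then 870, 899 and 841 against 576 and 614 CPM. Its groups were apart at each time, with adjusted p = 4.1e-06 and 1.9e-08. Tcp1, the subunit that gave the complex its name, read 889, 895 and 883 against 718, 755 and 762 CPM at 24 h and 808, 872 and 813 against 640 and 707 CPM at 48 h. These values also did not overlap. The other 6 subunits fell by 0.30 to 0.36 at 24 h and by 0.37 to 0.49 at 48 h, Cct3 from 782, 797 and 759 to 537 and 576 CPM at 48 h (-0.49 ± 0.05, adjusted p = 4.6e-08). Per length, the subunits ranged in control cells at 24 h from 94.2 ± 0.616 RPKM for Cct7 to 428 ± 6.22 RPKM for Cct2 (SD, n = 3), over the union of annotated exons, which can be longer than the transcript in use. The change between the times was called for Cct2 (-0.18 ± 0.06, adjusted p = 0.0232) and Cct5 (-0.17 ± 0.06, adjusted p = 0.0445), and both were lost when libraries were scaled by total counts (-0.11 and -0.10). The call of Cct2 was also lost without control replicate 1 at 24 h (-0.18), AS1411 replicate 2 (-0.18) or 3 (-0.16) at 24 h, or AS1411 replicate 1 at 48 h (-0.15). That of Cct5 was lost without any single library of 24 h other than AS1411 replicate 1, without AS1411 replicate 1 or control replicate 1 at 48 h (-0.19 to -0.14 over these), and under DESeq2 (-0.18).

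The mitochondrial pair HSP60 and HSP10, which form a folding cage and its lid, fell at both times. Hspd1 (HSP60; ENSMUSG00000025980, chr1:55077835-55088243, minus strand) read 667, 697 and 694 CPM in control and 514, 530 and 552 CPM in AS1411 cells at 24 h, then 596, 632 and 604 against 436 and 447 CPM at 48 h. Hspe1 (HSP10; ENSMUSG00000073676, chr1:55088132-55091307, plus strand) read 159, 166 and 165 against 125, 132 and 133 CPM, then 148, 144 and 148 against 83.4 and 86.9 CPM. In both genes the AS1411 libraries were below all control libraries at each time. The genes share the promoter stretch printed above and were lower by similar amounts at 24 h (-0.37 ± 0.04 for Hspd1 and -0.33 ± 0.04 for Hspe1). At 48 h they differed by -0.47 ± 0.04 and -0.78 ± 0.05 from control, and the change between times passed for Hspe1 (-0.46 ± 0.06, adjusted p = 2.5e-05) and not for Hspd1 (-0.10, adjusted p = 0.202). The within-library ratio of Hspe1 to Hspd1 counts was 0.238 in each control library and 0.241 to 0.25 in AS1411 cells at 24 h. At 48 h it lay the other way, at 0.228 to 0.248 in control and 0.191 to 0.195 in AS1411 cells. The exact permutation p was 0.1 and 0.2, the smallest possible at each time, and this pair too was chosen after the values were seen. The annotated ends of the genes overlap, and whether counting used strand is not given in the sources used here, so reads from the shared stretch cannot be told apart.

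J-proteins, which deliver clients to HSP70, are described by class. Class A J-proteins, which resemble bacterial DnaJ throughout, had 2 lower (50%) and 1 higher (25%) of 4 at 24 h. Of all genes 16.7% were lower and 13.1% higher. At 48 h 3 were lower (75%) and 1 higher (25%), beside 28.5% and 29.4%. Dnaja1, a major partner of cytosolic HSC70, read 158, 158 and 148 against 130, 129 and 133 CPM at 24 h and 168, 152 and 154 against 125 and 133 CPM at 48 h. The groups were apart both times (-0.25 ± 0.05 and -0.29 ± 0.05). Dnaja2, the other main cytosolic class A protein, fell by 0.27 ± 0.04 and 0.20 ± 0.04, and the mitochondrial Dnaja3 by 0.21 ± 0.06 at 48 h only by call (-0.11 ± 0.05 at 24 h). Both calls at 48 h were lost with scaling by total counts (-0.06 and -0.07). Dnaja4 rose from 5.77, 5.91 and 7.26 to 7.89, 9.5 and 8.26 CPM at 24 h and from 9, 8.39 and 7.7 to 11.4 and 11.8 CPM at 48 h, and its call at 24 h was lost without control replicate 1 (0.38) or 2 (0.40) or AS1411 replicate 2 (0.36). Its groups did not overlap at either time.

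Class B J-proteins, which carry the J domain and a glycine-rich stretch, had 1 of 7 higher at 24 h (14.3%, beside 13.1% of all genes) and 4 higher (57.1%, beside 29.4%) and 1 lower at 48 h, with medians of 0.08 and 0.16. Of those 4 calls, 2 were lost under some settings, as given for Dnajb5 and Dnajb12. Dnajb1, the main heat-inducible J-protein of the cytosol, did not differ beyond its spread. It read 143, 146 and 134 against 144, 146 and 140 CPM at 24 h and 153, 134 and 151 against 148 and 145 CPM at 48 h, with log2 differences of 0.02 ± 0.05 and 0.01 ± 0.05. Dnajb2, a J-protein with ubiquitin-binding motifs, rose from 28.7, 29.6 and 28.8 to 42.9, 39.1 and 40.8 CPM at 24 h (0.50 ± 0.07, adjusted p = 4.2e-05) and from 29.3, 25.2 and 30.3 to 45.5 and 44.3 CPM at 48 h (0.67 ± 0.08, adjusted p = 5.2e-07). Its groups were far apart at both times. Dnajb4, a heat-inducible relative of Dnajb1, read 73, 71.1 and 65.2 against 72.5, 76.2 and 72.5 CPM at 24 h, an overlap, and 73.2, 66.2 and 69.3 against 95.6 and 101 CPM at 48 h. It rose at 48 h by 0.50 ± 0.06 (adjusted p = 7.5e-07), and the change between times was 0.42 ± 0.08 (adjusted p = 6.7e-04). Dnajb14, a J-protein of the endoplasmic reticulum membrane, went the other way at 48 h, from 41.8, 38.8 and 46.8 to 31.4 and 30.1 CPM (-0.47 ± 0.08). Dnajb5 and Dnajb12 were called higher at 48 h at 0.39 and 0.15. The call of Dnajb5 was lost without AS1411 replicate 1 (0.28). That of Dnajb12 was lost under DESeq2 (0.13, adjusted p = 0.0806) and when AS1411 replicate 2 (0.10) or, among control libraries, replicate 1 (0.13) or 3 (0.12) was left out.

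Class C J-proteins share only the J domain and serve scattered tasks. Of 24 tested, 4 were higher (16.7%) and 2 lower (8.33%) at 24 h, beside 13.1% and 16.7% of all genes. At 48 h 8 were higher (33.3%) and 9 lower (37.5%), beside 29.4% and 28.5%, shares near the background, and the medians were -0.03 and -0.05. The 3 largest rises at 48 h were in genes of low level. Dnajc12, a partner of aromatic amino acid hydroxylases, read 2.1, 2.55 and 2.93 CPM in control and 3.73, 5.26 and 4.37 CPM in AS1411 cells at 24 h, then 3.39, 3.12 and 3.74 against 8.56 and 9.71 CPM. The log2 fold change was 0.82 ± 0.18 (adjusted p = 0.00246) and 1.41 ± 0.17 (adjusted p = 9.6e-07). Dnajc28 went from 1.5, 2.15 and 1.69 to 3.03, 3.36 and 3.21 CPM and from 3.25, 2.63 and 2.96 to 6.79 and 6.78 CPM. Neither gene overlapped between treatments at either time. Dnajc22 went from 1.52, 0.918 and 0.893 to 2.91 and 3.39 CPM at 48 h (1.52 ± 0.27), while 0.421, 0.47 and 0.734 against 1.07, 0.73 and 1 CPM at 24 h was not called (adjusted p = 0.0963).

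Class C members that fell included Dnajc2, Dnajc13 and Dnajc1. Dnajc2, which acts at the ribosome exit tunnel on nascent chains, fell at 24 h from 171, 175 and 176 to 132, 140 and 140 CPM (-0.34 ± 0.05, adjusted p = 1.5e-04). At 48 h it read 147, 165 and 148 against 122 and 141 CPM, and the difference of -0.23 ± 0.06 was lost without AS1411 replicate 1 (-0.13, adjusted p = 0.123) or with scaling by total counts (-0.08). Dnajc13, which uncoats and sorts endosomes, read 146, 164 and 155 against 143, 139 and 143 CPM at 24 h. It rose in control cells to 177, 212 and 185 CPM at 48 h (0.30 ± 0.06 with time, adjusted p = 8.7e-04) and stood at 142 and 140 CPM in AS1411 cells, so that the treatment difference at 48 h was -0.44 ± 0.06. Dnajc1, of the endoplasmic reticulum membrane, read 46.6, 49.5 and 47.1 against 38.6 and 38.5 CPM at 48 h (-0.31 ± 0.06). The groups of both genes were apart at 48 h. Dnajc9, which chaperones histones, was higher at 48 h (141, 123 and 122 against 149 and 142 CPM; 0.18 ± 0.06), a call lost without AS1411 replicate 1 (0.14, adjusted p = 0.123). Dnajc18 rose from 39, 42.6 and 38.5 to 50.3, 48.3 and 49.7 CPM at 24 h (0.30 ± 0.06, adjusted p = 0.00153), and its difference of 0.24 ± 0.07 at 48 h was lost without AS1411 replicate 1 (0.18). Dnajc7, a co-chaperone that binds both HSP70 and HSP90, fell by 0.21 ± 0.05 at 24 h and differed by -0.13 ± 0.05 at 48 h (adjusted p = 0.0403), where the sign turned with scaling by total counts (0.02). That call was also lost under DESeq2 (-0.14) and without any 1 of 7 libraries, AS1411 replicate 1 of 48 h giving -0.06 and the 6 others -0.14 to -0.10.

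BAG factors, which exchange nucleotide on HSP70 and pass clients on, had 1 higher and 1 lower of 6 at 24 h (16.7% each). Of all genes tested 13.1% were higher and 16.7% lower. At 48 h 2 BAG factors were higher (33.3%) and 0 lower, beside 29.4% and 28.5%, so the shares lay near or below the background. Bag6, which guards newly made membrane proteins, rose at both times, by 0.13 ± 0.04 and 0.18 ± 0.04, from 378, 366 and 369 to 408, 401 and 407 CPM at 24 h and from 374, 391 and 380 to 427 and 440 CPM at 48 h. Its groups did not overlap. Bag3, which steers HSP70 clients to autophagy together with HSPB8, changed sign: 80, 77.6 and 73.6 against 69.6, 69.4 and 71.4 CPM at 24 h, and 77.2, 72.4 and 78 against 85.6 and 85.3 CPM at 48 h. AS1411 libraries were below control at 24 h and above it at 48 h, with log2 differences of -0.14 ± 0.05 (adjusted p = 0.0378) and 0.17 ± 0.05 (adjusted p = 0.00929). The change between times was 0.31 ± 0.07 (adjusted p = 0.0035). The difference at 24 h no longer passed without any single library of 24 h other than control replicate 3, or without either AS1411 library of 48 h (values from -0.15 to -0.10 over these), under DESeq2 (-0.14), or with scaling by total counts (-0.06). That at 48 h was lost without AS1411 replicate 1 (0.16) or 2 (0.16). Bag1, Bag2, Bag4 and Bag5 were called at neither time.

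Of the 5 small heat shock proteins tested, 1 was higher and 1 lower at 24 h (20% each), beside 13.1% and 16.7% of all genes. At 48 h 2 were higher (40%) and 0 lower, beside 29.4% and 28.5%. Hspb1 (ENSMUSG00000004951, chr5:135887919-135889563, plus strand), the actin-protecting HSP27, called HSP25 in mouse, read 9.62, 8.66 and 8.73 CPM in control and 11.4, 12.3 and 12.3 CPM in AS1411 cells at 24 h. The later values were 9.14, 7.35 and 8.6 against 16.7 and 16.8 CPM. AS1411 libraries lay above all control libraries, by a log2 fold change of 0.41 ± 0.10 (adjusted p = 0.00593) and 1.0 ± 0.11 (adjusted p = 4.0e-07). Its windows hold the adjacent-unit motif 2 times and no longer run. Hspb6, a muscle-enriched relative, was lower at 24 h (30, 33.6 and 29.3 against 26.6, 25.6 and 26.7 CPM; -0.24 ± 0.07) and at 48 h read 24.4, 22.7 and 24.4 against 26.5 and 25 CPM, with no call. Its call at 24 h was lost without control replicate 2 (-0.17) or AS1411 replicate 2 (-0.22) and with scaling by total counts (-0.16). Hspb8, the partner of Bag3, was called at neither time. Neither was Hspb2, a gene of very low level, which read 0.9, 0.673 and 0.67 against 1.31 and 1.3 CPM at 48 h. Over time in AS1411 cells Hspb2 was called higher (1.16, adjusted p = 0.0204). That call was lost under DESeq2, without AS1411 replicate 1 or 3 at 24 h, and without either AS1411 library at 48 h. Hspb11, which shares the family name but is known as a part of the ciliary transport machinery, was higher at 48 h (7.41, 6.18 and 9.71 against 10.7 and 11.1 CPM; 0.48 ± 0.15), a call lost without AS1411 replicate 2 (0.45).

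The heat shock factors themselves were called at neither time. Hsf1, the master activator of the heat shock response, read 113, 118 and 114 CPM in control and 119, 113 and 118 CPM in AS1411 cells at 24 h, and 105, 98.6 and 98 against 113 and 102 CPM at 48 h. The groups overlapped at both times, with log2 differences of 0.02 ± 0.05 and 0.10 ± 0.05. Hsf2, a partner that forms mixed complexes with Hsf1, differed by -0.14 ± 0.06 (adjusted p = 0.0955) and 0.02 ± 0.07. Both were lower at 48 h than at 24 h in control cells, by -0.19 ± 0.05 and -0.22 ± 0.06. The call of Hsf2 was lost without control replicate 1 (-0.21) or 3 (-0.17) at 24 h or control replicate 2 at 48 h (-0.16). It was also lost with scaling by total counts and in the fit on the compared groups alone. These are transcript levels, and HSF1 is known to be controlled largely at the protein.

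Summed over each group, levels were lower in every AS1411 library for HSP90, CCT, HSP70, HSP60 with HSP10, and class A and C J-proteins. HSP90 and its co-chaperones summed to 7900 to 7945 CPM in control and 5994 to 6340 CPM in AS1411 cells at 24 h, and to 7448 to 7746 against 4683 to 4727 CPM at 48 h. Most of this sum was Hsp90ab1, at a mean of 5519 of 7919 CPM in control cells at 24 h and 3066 of 4705 CPM in AS1411 cells at 48 h. The CCT subunits summed to 6887 to 7077 against 5375 to 5705 CPM, then 6358 to 6739 against 4600 to 4946 CPM. HSP70 and HSP110 genes summed to 4517 to 4658 against 3723 to 3807 CPM, then 4382 to 4841 against 3384 to 3474 CPM. HSP60 and HSP10 summed to 826 to 863 against 639 to 685 CPM, then 744 to 776 against 519 to 534 CPM. Class A J-proteins summed to 754 to 778 against 641 to 656 CPM, then 711 to 727 against 605 to 637 CPM. Class C J-proteins summed to 1804 to 1805 against 1705 to 1723 CPM, then 1772 to 1832 against 1668 to 1739 CPM. In each of these groups treated and control libraries were apart at both times. Class B J-proteins lay the other way, summing to 406 to 427 CPM in control and 435 to 448 CPM in AS1411 cells at 24 h, and to 409 to 433 against 474 to 479 CPM at 48 h. Small heat shock proteins summed to 98.6 to 109 against 115 to 125 CPM at 48 h and overlapped at 24 h. BAG factors likewise overlapped at 24 h and summed to 787 to 812 against 845 to 872 CPM at 48 h. Heat shock factors overlapped at both times.

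**Figure D3:**
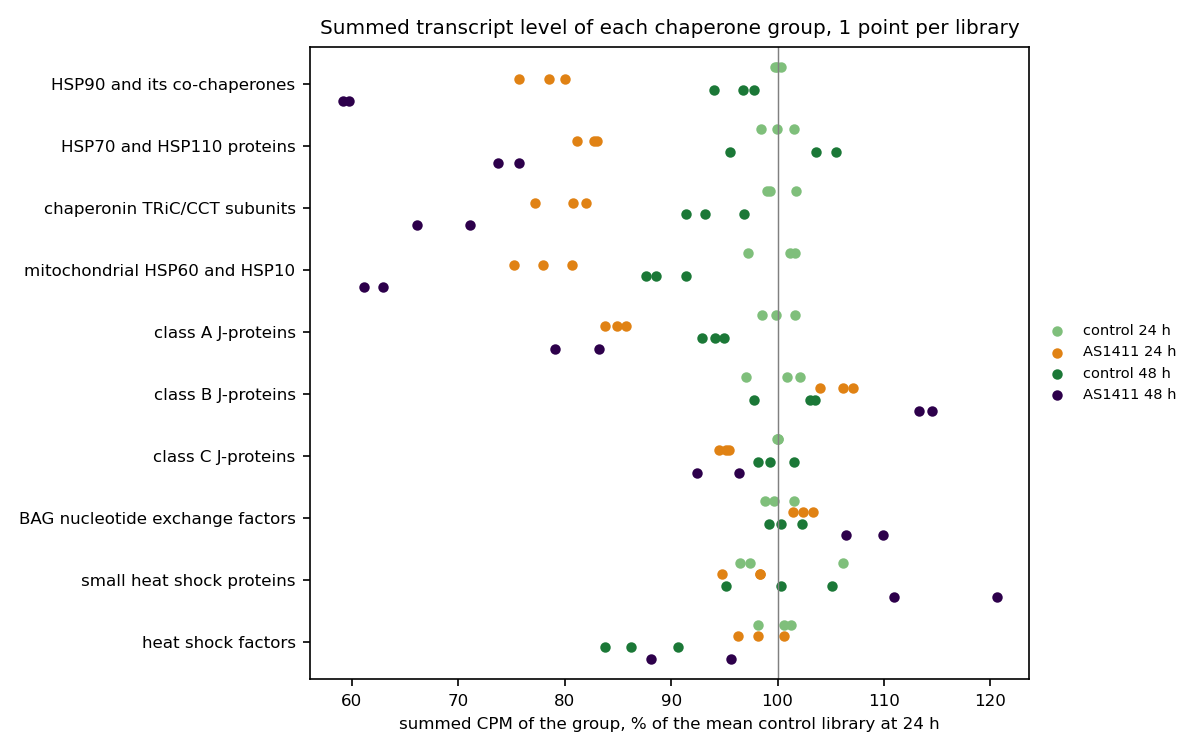
Summed CPM of the members of each chaperone group in each library (points), as a percent of the mean control library at 24 h (x axis, not starting at 0). The HSP90, HSP70, CCT, HSP60/HSP10 and class A J-protein groups lie lowest in AS1411 cells at 48 h. Class B J-proteins, BAG factors and small heat shock proteins lie highest there.

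The effect of AS1411 at 48 h differed from that at 24 h for 20 members. The difference between the effects at 48 h and 24 h was tested with an interaction term. It passed toward lower values for 15 members (20.3%) and toward higher values for 5 (6.76%), beside 14.1% and 13.4% of all genes tested. With scaling by total counts the split was 11 lower (14.9%) and 6 higher (8.11%), beside 9.14% and 17.7% of all genes. Among the 15 were 5 of the 6 HSP90-system genes, Hspa8 (-0.60 ± 0.06, adjusted p = 1.4e-06), Hspe1, Hspa4l and Hsph1. Of the HSP90-system genes, Stip1 passed narrowly (adjusted p = 0.049). Its call was lost in 10 of the 16 settings run, that of Hsph1 in 9 and that of Hspa4l in 1. Fkbp4 had -0.54 ± 0.06 and Ahsa1 -0.47 ± 0.06. Toward higher values the strongest were Hspb1 (0.59 ± 0.15, adjusted p = 0.00817) and Dnajb4. Hsp90aa1, Hspd1 and 6 of the 8 CCT subunits were not called in this test.

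Time alone was compared within each treatment. Between 24 h and 48 h 7 members were higher (9.46%) and 13 lower (17.6%) in control cells, beside 11.6% and 13.2% of all genes. Without control replicate 2 or 3 of 24 h 6 were lower, and without replicate 1 of 24 h 4 were higher and 8 lower. In AS1411 cells 14 were higher (18.9%) and 27 lower (36.5%), beside 24.5% and 24.6%, and with scaling by total counts 20 were higher and 17 lower (27% and 23%, beside 33.3% and 15.7% of all genes). These comparisons share libraries with the treatment comparisons and are given side by side. No gene of the HSP90 system was called over time in control cells, where Hsp90ab1 differed by -0.05 ± 0.03, while in AS1411 cells it fell by 0.44 ± 0.04. Hspa8 differed by -0.02 ± 0.04 in control and -0.61 ± 0.05 in AS1411 cells. Hspd1 fell in both, by 0.17 ± 0.04 in control and 0.27 ± 0.04 in AS1411 cells. Dnajc11 was called lower over time in both as well, going from 136, 137 and 147 to 116, 128 and 118 CPM in control cells. Dnajc28, on the other side, rose in both, by 0.73 ± 0.19 and 1.08 ± 0.17, and its call in control cells was lost without control replicate 1 at 24 h (0.62, adjusted p = 0.055). Hspb1 rose in AS1411 cells (0.47 ± 0.11) and differed by -0.11 ± 0.11 in control cells.

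Genes that work with these chaperones were read in lists, beside the 16.7% of all genes lower and 13.1% higher at 24 h and the 28.5% and 29.4% at 48 h. Of 15 tested genes known to be induced by HSF1, 12 of them members, 9 were lower (60%) and 1 higher at 24 h, and 10 lower (66.7%) and 3 higher at 48 h (medians -0.14 and -0.29). Outside the member set, Serpinh1, the collagen chaperone HSP47, fell by 0.71 ± 0.10 at 48 h, and Cryab, the small heat shock protein alpha-B crystallin, rose by 0.64 ± 0.06 there (adjusted p = 1.9e-08). Of 14 further HSP90 co-chaperones, 8 were lower (57.1%) and 2 higher at 24 h, and 9 lower (64.3%) and 1 higher at 48 h (medians -0.20 and -0.28). Ppid, the cyclophilin CYP40, fell by 0.41 ± 0.04 and 0.69 ± 0.04. Ptges3, the client-release factor p23, fell by 0.31 ± 0.04 and 0.58 ± 0.05. Tomm70a, a mitochondrial outer-membrane receptor that docks HSP90 and HSP70, fell by 0.30 ± 0.05 and 0.53 ± 0.06.

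Of prefoldin and other CCT cofactors, 4 of 11 were lower (36.4%) and 1 higher at each time, with medians of -0.06 and -0.10. The higher one was Pdrg1, a prefoldin-like subunit, at 0.95 ± 0.06 and 1.10 ± 0.07, while Pfdn1 fell by 0.19 ± 0.04 and 0.21 ± 0.05. The mitochondrial import motor, chaperones and proteases had 2 of 15 lower (13.3%) at 24 h, and 5 higher (33.3%) and 2 lower (13.3%) at 48 h, with medians of -0.07 and -0.08, so the share higher at 48 h was near that of all genes. Spg7, a subunit of an inner-membrane protease, rose by 0.56 ± 0.06 at 48 h, and Trap1, the mitochondrial HSP90, by 0.17 ± 0.05. Endoplasmic reticulum folding genes that the rule left out had 3 of 10 lower (30%) and 1 higher at 24 h, and 5 lower (50%) and 1 higher at 48 h (medians -0.09 and -0.16). Hsp90b1, the HSP90 of that compartment, fell by 0.23 ± 0.04 and 0.38 ± 0.05, and Dnajb9, a J-protein there, rose by 1.51 ± 0.11 at 48 h.

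**Figure D4:**
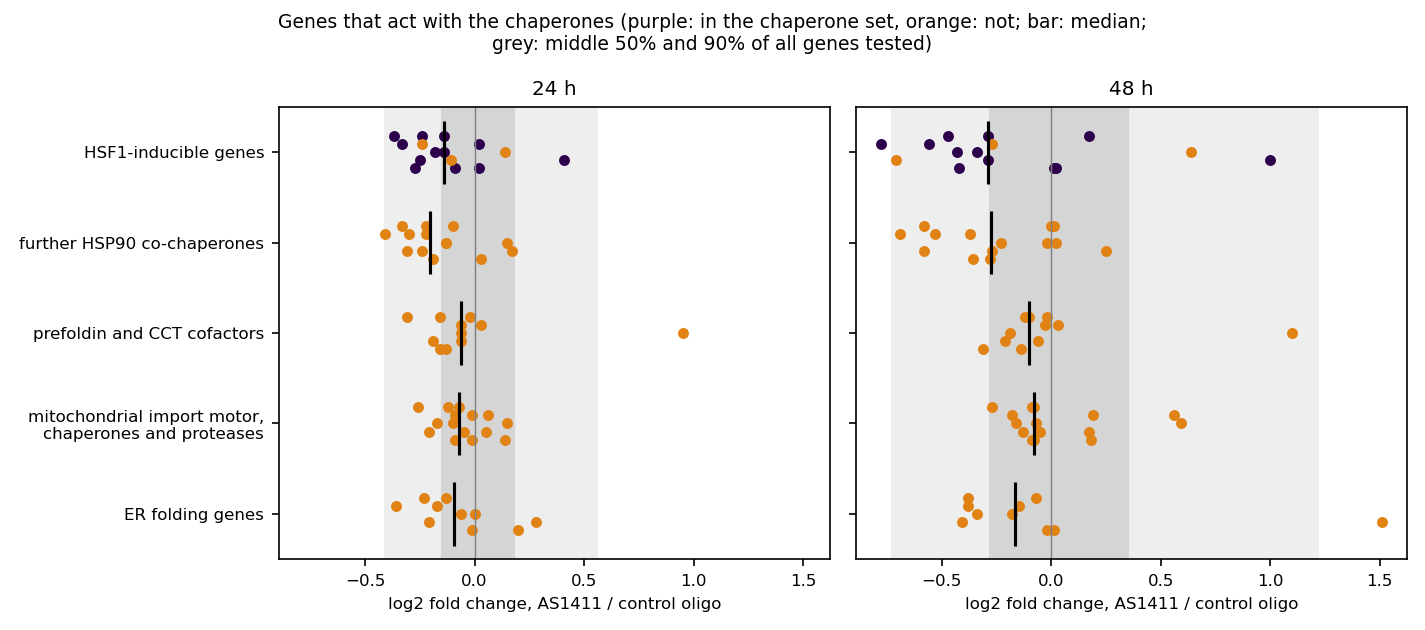
Log2 fold change of AS1411 against control oligo (x axis) at 24 h and 48 h for genes that work with the chaperones, 1 point per gene (purple in the chaperone set, orange not), with the list median (bar) and the middle 50% and 90% of all genes tested (dark and light grey). The medians of HSF1-inducible genes and further HSP90 co-chaperones at 48 h are -0.29 and -0.28, and Dnajb9 (1.51) and Pdrg1 (1.10) lie furthest right there.

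Per length, the next highest members after Hsp90ab1 in control cells at 24 h were Stip1 at 513 ± 6.98 RPKM, Cct2 at 428 ± 6.22 RPKM and Hspa9 at 367 ± 6.82 RPKM. Cct6a, Cct8 and Cct5 followed at 306 ± 4.89, 303 ± 8.5 and 297 ± 6.51 RPKM, and these 3 lay within their spread of each other. Hspa1a, Hspb7 and Hspb9 were in the table and were left out by the filter on low counts, with 0 to 6, 2 to 9 and 2 to 8 counts per library. Hspa1a, at 1, 0 and 2 counts in control and 6 and 3 in AS1411 libraries at 48 h, was not called there in the fit with no filter (2.01 ± 0.92, adjusted p = 0.0724). Hspb7 had 2, 2 and 3 counts in control and 9 and 7 in AS1411 libraries at 48 h, and that fit called it higher (1.69 ± 0.61, adjusted p = 0.0232). Hspb9 had 2 counts in each control library and 6 and 8 in AS1411 libraries at 48 h (1.72 ± 0.64, adjusted p = 0.0284). At 24 h the adjusted p-values of these 3 genes in that fit were 0.315 to 0.827.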

How the data were processed

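RNA was measured in 11 libraries of NIH-3T3 cells. The deposited table of raw counts per Ensembl gene was used as the authors gave it. Per the submitters' processing notes, bcl2fastq, cutadapt, STAR, HTSeq and DESeq2 were used with GRCm38, with no versions, roles or counting settings given. A second, normalized table was not used. The members and gene lists were chosen with earlier results of these data known.

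Symbols, positions and exon lengths came from GENCODE M21 (GRCm38), in which 14973 of 15022 gene IDs were found. edgeR 4.0.16 (R 4.3.3) was run on the counts of all libraries with TMM scaling, edgeR's default filter on low counts by group, 1 coefficient for each group and the quasi-likelihood test, which left 7 residual degrees of freedom. P-values were adjusted by Benjamini-Hochberg over 13040 genes, and the threshold was 0.05. CPM and RPKM were computed with the TMM factors. Depth was 13541951 to 18784497 counts, and SEs reflect the spread between libraries.

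Members were named by rule: in each comparison the 5 called genes of lowest adjusted p on each side, in each role up to 4 at each time, up to 8 with a called interaction, and Hsf1, Hsf2, Hspa1a, Hspa1b, Hsp90aa1, Hsp90ab1, Hspa8, Hspd1, Hspe1 and Tcp1 always. From each list of other genes up to 3 with the smallest adjusted p at 48 h were eligible. Dnajb1, Fkbp5, Cct5, Cct7, Dnajc30 and the remaining interaction calls lay outside the rule and were chosen after their values were seen. The 24 h and 48 h comparisons, their difference and the change with time in each treatment were tested. Alternatives were median-of-ratios scaling, scaling by total counts, DESeq2 1.42.0, no filter, a fit on the compared groups alone, a block for the replicate number, and leaving out each library. Ratios of 2 genes were compared by exact permutation of libraries. The edgeR step was also run on simulated counts with 200 genes changed, and its outcome is not given here. At 48 h 3835 genes were called higher and 3713 lower in the real data. That run was therefore unlike these data and gives no measure of their error.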

Additional observations from a re-analysis of the deposited data

Results flagged for a closer look

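The effect of AS1411 differed between 48 h and 24 h for 20 members by the interaction test (edgeR, adjusted p under 0.05), which is what marked each of them for a closer look. The values below are the log2 effect at 48 h minus that at 24 h.

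Toward lower values the HSP90 system and its partners had -0.39 for Hsp90ab1, -0.54 for Fkbp4, -0.47 for Ahsa1, -0.29 for Fkbp5 and -0.15 for Stip1. HSP70 and HSP110 genes had -0.60 for Hspa8, -0.25 for Hspa4l and -0.20 for Hsph1. HSP10 and chaperonin subunits had -0.46 for Hspe1, -0.18 for Cct2 and -0.17 for Cct5. J-proteins had -0.37 for Dnajb14, -0.32 for Dnajc1, -0.31 for Dnajc13 and -0.61 for Dnajc30, a mitochondrial J-protein. Toward higher values Hspb1 had 0.59, Dnajb4 0.42, Hspb6 0.35, Bag3 0.31 and Dnajc9 0.21.

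Of these, 12 kept the call under every alternative run. The other 8 were Cct2, Cct5, Dnajc9, Dnajc30, Hspa4l, Hspb6, Hsph1 and Stip1. Hspa4l was lost only without AS1411 replicate 1 at 48 h (-0.25, adjusted p = 0.0579). Dnajc30 was lost without AS1411 replicate 3 (-0.55) or control replicate 3 (-0.52) at 24 h, or either AS1411 library at 48 h (-0.63 and -0.62). Hspb6 was lost without AS1411 replicate 2 (0.33) or control replicate 2 (0.28) at 24 h, without AS1411 replicate 1 at 48 h (0.29), and under DESeq2 (0.34). Stip1 was lost without any 1 of the 6 libraries of 24 h, either AS1411 library of 48 h or control replicate 1 of 48 h (-0.18 to -0.12), and with scaling by total counts (-0.08, adjusted p = 0.293). Hsph1 was lost without any 1 of those 6, AS1411 replicate 2 or control replicate 1 of 48 h (-0.22 to -0.13), and with scaling by total counts (-0.14, adjusted p = 0.191). Cct2 and Cct5 were lost with that scaling too (-0.11, adjusted p = 0.108, and -0.10, adjusted p = 0.18) and without single libraries, as given above. Dnajc9 was lost without any 1 library other than control replicate 1 of 48 h (0.16 to 0.23), under DESeq2 (0.20, adjusted p = 0.104), with median-of-ratios scaling (0.20, adjusted p = 0.0538), with no filter (0.20, adjusted p = 0.0634) and with a replicate block (0.20, adjusted p = 0.0542), which is 14 of the 16 settings run.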

How the results depend on the processing

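Scaling by total counts moved the median of all genes to 0.09 at 24 h and 0.16 at 48 h (log2), and with it the split of member calls, from 9 higher and 26 lower to 13 and 21 at 24 h, from 18 and 35 to 27 and 23 at 48 h, from 5 and 15 to 6 and 11 for the difference between times, and from 14 and 27 to 20 and 17 over time in AS1411 cells. Under it Dnajc21 (0.14) and Dnajc7 (0.02) changed sign at 48 h. DESeq2 gave 3 higher members for the difference between times in place of 5, and the fit on the compared groups alone gave 8 lower over time in control cells in place of 13 and 12 higher at 48 h. Calls at 48 h lost in that fit were those of Dnajb12, Dnajc7, Dnajc9, Dnajc14, Dnajc16, Dnajc19, Hspa2 and Hspb11 (adjusted p from 0.051 to 0.134). No other such setting moved a count of calls by more than 1.5 times. Leaving out 1 library gave 8 to 11 higher and 22 to 27 lower at 24 h, 10 to 18 and 29 to 35 at 48 h, 3 to 5 and 10 to 17 for the difference, 4 to 10 and 6 to 16 over time in control cells and 9 to 14 and 24 to 30 over time in AS1411 cells. The lowest were 10 higher at 48 h without AS1411 replicate 1; 3 for the difference without AS1411 replicate 2 or control replicate 2 at 24 h or AS1411 replicate 1 at 48 h; 4 higher and 8 lower over time in control cells without control replicate 1 at 24 h, and 6 lower without replicate 2 or 3; and 9 higher over time in AS1411 cells without AS1411 replicate 2 at 48 h. Where AS1411 at 48 h was left with 1 library, it was assumed to vary like the other groups. Calls that passed in every setting numbered 29 of 35 at 24 h, 31 of 53 at 48 h, 12 of 20 for the difference, 7 of 20 over time in control cells and 24 of 41 in AS1411 cells.

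Deviations from the group mean correlated from -0.046 to 0.208 between same-numbered libraries. The highest values were between AS1411 and control libraries of 48 h, 0.208 for replicate 2 and 0.123 for replicate 1. AS1411 replicate 1 and control replicate 2 of 48 h gave -0.208. With 2 AS1411 libraries at 48 h these values mirror each other, so what the numbers stand for cannot be told from them. With a replicate block, 9 members were higher and 26 lower at 24 h, 17 and 35 at 48 h, 4 and 16 for the difference, 7 and 13 over time in control cells and 13 and 28 in AS1411 cells. The calls lost under the block were Hspa2 at 48 h (0.27, adjusted p = 0.0637), the difference between times for Dnajc9 (0.20, adjusted p = 0.0542) and Bag6 over time in AS1411 cells (0.10, adjusted p = 0.0651). Of the members in the table, 3 were left out by the filter on low counts, and with no filter 20 members were higher and 35 lower at 48 h. Those higher included Hspb7 and Hspb9, at 2 to 9 and 2 to 8 counts per library. The share of all genes called in that fit is not given here.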
